A study of Homo sapiens with 6 samples.

Results

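AGPS, DPY19L4, NDC1, ATL2 and MRPL50 are 5 genes whose poly(A) site use moved far towards an upstream site after siRNA against CF Im68 or CF Im25. These are subunits of cleavage factor Im, and the cells were HEK293, an established human embryonic kidney cell line. They were picked on that very change. AGPS, DPY19L4 and NDC1 held ranks 1 to 3 after CF Im68 siRNA, and MRPL50 and ATL2 held ranks 1 and 2 after CF Im25 siRNA, among pairs of sites with at least 100 reads in each library. They are 5 of 8999 transcribed regions in which a pair of sites could be compared. The changes that follow these siRNAs are therefore given as descriptions, and they lend no support to anything else. Just outside the choice lay a pair on the plus strand of chromosome 12 at 27475654 and 27478021 (hg19), rank 4 after CF Im68 siRNA with a change of 83.2 percentage points, and a pair on the minus strand of chromosome 17 at 62541465 and 62538423, rank 3 after CF Im25 siRNA with 69.0 points.

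The 3′ ends of polyadenylated RNA were read by A-seq, which primes reverse transcription at the start of the poly(A) tail, so that a read ends at the cleavage site. The groups were CF Im25 siRNA, CF Im59 siRNA, no siRNA and scrambled siRNA with RNA broken by alkaline hydrolysis, and CF Im68 siRNA and scrambled siRNA with RNA broken by RNase I. Transfected cells were collected 3 days after siRNA, and the labels name 1 siRNA for each target. The label of the CF Im68 siRNA library ends in a number whose meaning is not given, and it was not taken as a replicate number. Each group held 1 library, so no difference could be set against a spread between replicates, and every interval below is a 95% interval for the counting of reads only. PCR copies of the same molecule are not independent counts, which can make these intervals too narrow.

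Most human genes can end their messenger RNA at more than 1 poly(A) site, and a cut at an upstream (proximal) site leaves a shorter 3′ untranslated region than a cut at a downstream (distal) site. The choice decides which binding sites for microRNAs and proteins a transcript carries. Cleavage factor Im binds UGUA motifs upstream of poly(A) sites and helps to recruit the cleavage machinery. It joins a CF Im25 dimer, which recognises UGUA, with the larger subunits CF Im59 or CF Im68. The 5 genes have unrelated roles. AGPS is alkylglycerone phosphate synthase, a peroxisomal enzyme of ether lipid synthesis. DPY19L4 is a multi-pass membrane protein of the DPY19 family, whose founding member in worms is a C-mannosyltransferase. NDC1 is a transmembrane nucleoporin that anchors the nuclear pore complex in the nuclear envelope. ATL2 is atlastin 2, a GTPase that fuses tubules of the endoplasmic reticulum, and MRPL50 is a protein of the large subunit of the mitochondrial ribosome.

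Library totals lay between 5351980 reads (scrambled siRNA, RNase I) and 18183644 reads (no siRNA), of which 91.6% to 98.9% were nuclear. Levels below are CPM, reads scaled to 1000000 nuclear reads. The targeted transcripts were lower in the library that carried each label. NUDT21, which encodes CF Im25, stood at 11.95 CPM with CF Im25 siRNA and 87.8 CPM with scrambled siRNA, and was 7.35-fold lower. CPSF7, which encodes CF Im59, stood at 28.6 CPM with its siRNA and 63.6 CPM with scrambled siRNA, 2.22-fold lower. CPSF6, which encodes CF Im68, stood at 41.8 CPM with its siRNA and 121.8 CPM with scrambled siRNA, 2.91-fold lower. Of the HEK293 markers, VIM lay between 420 and 758 CPM and NEFL between 71.0 and 1472 CPM, while NEFM was near absent at 0.391 to 1.51 CPM. Markers of other tissues were low, with 0 reads of HBB in all 6 libraries, at most 2 reads of ALB and at most 40 reads of PTPRC.

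Within the 5 gene windows, 25 poly(A) sites had a mean of at least 1 CPM over the libraries. AGPS had 5 such sites, DPY19L4 6, NDC1 4, ATL2 8 and MRPL50 2. The pair compared in each gene is the 2 sites with the largest share of the end region's reads, averaged over the libraries, in hg19 positions. By mean level, scaled to all reads of a library, the order in AGPS is different, with 12.4 CPM at the intermediate site 178404164 and 11.7 CPM at the upstream site of the pair. In AGPS, on the plus strand of chromosome 2, the upstream site lay at 178403013 and the downstream site at 178406782, 3769 nt apart. In DPY19L4, on the plus strand of chromosome 8, they lay at 95802348 and 95806062, 3714 nt apart. On the minus strands, NDC1 on chromosome 1 had its pair at 54233394 and 54231158, 2236 nt apart, ATL2 on chromosome 2 at 38523045 and 38521105, 1940 nt apart, and MRPL50 on chromosome 9 at 104152248 and 104149916, 2332 nt apart. All 5 spacings exceeded the median of 1141 nt over all pairs, and AGPS had the widest, wider than 87.1% of pairs.

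The positions were set against the GENCODE release 29 transcripts of these genes (GRCh38) by distance from the annotated end, with no conversion of coordinates. The most downstream site was taken as that end. Any gap between them would shift all distances within a gene alike. On this reading, the upstream site lay 89 nt after the stop codon in AGPS, 212 nt in DPY19L4, 274 nt in NDC1 and 501 nt in MRPL50, whose annotated stretches between stop codon and transcript end are 5641, 3926, 2510 and 2833 nt. A transcript cut at the upstream site would thus keep only the first part of the annotated 3′ untranslated region in these 4 genes. The annotated stretch of ATL2, 1114 nt, is shorter than the distance between its sites, so ATL2 was not compared.

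The sequence around the sites of 3 genes shows which of them carry a poly(A) signal. The 30 bases below come from the GENCODE transcripts of GRCh38, given 5′ to 3′ on the transcript strand, and capitals mark AATAAA or ATTAAA.
AGPS upstream site, chr2:177538255-177538284, plus strand: atactagtaatcaaatatatcatggactat
AGPS intermediate site, chr2:177539408-177539437, plus strand: tggatATTAAAgtgaaatgattactttgaa
AGPS downstream site, chr2:177542013-177542042, plus strand: ttattAATAAAatggacctgggtctaatat
NDC1 upstream site, chr1:53767718-53767747, minus strand: ggtatAATAAAatctttattcaattttaca
NDC1 downstream site, chr1:53765476-53765505, minus strand: agaaaAATAAAttggcaatttaaaaaaatg
MRPL50 upstream site, chr9:101389965-101389994, minus strand: ttagaATTAAAgtagatttgttaaagtgta

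Placed in this way, the downstream site had AATAAA 30 nt upstream of the cut in AGPS, 18 nt in DPY19L4 and 35 nt in NDC1. The upstream sites differed among themselves. AGPS had neither hexamer in the 10 to 45 nt before its upstream site, NDC1 had AATAAA 41 nt before the cut, and DPY19L4 and MRPL50 had the variant ATTAAA at 23 and 19 nt. The NDC1 distances, with 43 nt at its minor site 54231888, all lay near the far limit of 45 nt. They may be too long, if the most downstream NDC1 site is not the annotated end. Such an offset would also move the NDC1 distance after the stop codon and its TGTA and A counts below. Of 24 sites with at least 20 reads that lay after the stop codon in these genes, 15 had a hexamer (62.5%), where 7.66% of all 14730 places in the same stretches and 42.8% of 82352 annotated ends of protein-coding transcripts have one. The letters TGTA, searched on the transcript strand in the 100 nt before a site, occurred 0 times before the upstream and 2 times before the downstream site of AGPS. They occurred 0 and 1 times in DPY19L4, 1 and 1 times in NDC1, and 2 times before the upstream site of MRPL50, and 39.5% of annotated ends hold at least 1 copy. The 10 bases after the upstream site held 3 As in AGPS, 4 in DPY19L4, 1 in NDC1 and 0 in MRPL50, where the median place in these stretches holds 3. The minor AGPS site at 178402942 was followed by 7 As, and 7.45% of places in these stretches are followed by at least 6. The downstream site of AGPS was followed by 4 As. The downstream sites of DPY19L4, NDC1 and MRPL50 were taken as the transcript end, so the bases after them were not counted. The bases printed above for the NDC1 downstream site hold a run of As after the hexamer. Whether reads there come from priming at these As was not tested.

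The proximal share of a pair is the percent of its reads that end at the upstream site. With CF Im25 siRNA the upstream site of AGPS held 52.0% of 229 reads and with CF Im68 siRNA 97.6% of 629 reads. In the other libraries the share was 2.84% with CF Im59 siRNA, 3.33% without siRNA and 5.35% with scrambled siRNA (alkaline), and 8.22% with scrambled siRNA (RNase I). Of the reads at this pair, nearly all thus lay downstream in every control, about equal numbers at either site with CF Im25 siRNA, and nearly all upstream with CF Im68 siRNA. The share leaves out the other AGPS sites, of which the intermediate one held 42.2% of the reads of the end region with scrambled siRNA (RNase I). The change was 46.6 points after CF Im25 siRNA (interval 39.8 to 53.2) and 89.4 points after CF Im68 siRNA (85.4 to 92.2). With all reads of the window as denominator the first was 28.7 points (23.8 to 33.8). With all kept sites of the end region split midway between the pair, chosen after seeing the data, the second was 50.6 points (46.1 to 54.9).

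DPY19L4 showed the same order. Its upstream site held 39.7% of 184 reads with CF Im25 siRNA and 90.5% of 378 reads with CF Im68 siRNA. The share was 2.92% with CF Im59 siRNA, 3.44% without siRNA and 2.75% with scrambled siRNA (alkaline), and 2.78% of 108 reads with scrambled siRNA (RNase I). Its 4 remaining libraries thus lay within 1 point of each other. The change was 36.9 points after CF Im25 siRNA (29.3 to 44.3) and 87.7 points after CF Im68 siRNA (81.6 to 90.8). With all reads of the window as denominator these were 15.8 points (11.9 to 19.9) and 55.5 points (50.3 to 59.5).

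NDC1 reached a similar share with either siRNA. Its upstream site held 90.3% of 269 reads with CF Im25 siRNA and 89.7% of 829 reads with CF Im68 siRNA. The controls were less alike, at 29.4% without siRNA and 24.2% with scrambled siRNA (alkaline) and 3.86% with scrambled siRNA (RNase I), and CF Im59 siRNA gave 36.2%. The change was 66.1 points after CF Im25 siRNA (56.9 to 73.5) and 85.9 points after CF Im68 siRNA (83.2 to 88.0). With a minimum of 50 reads in each library, the rank of NDC1 was 11 of 6702 pairs after CF Im25 siRNA and 3 of 5291 after CF Im68 siRNA. At that minimum MRPL50 and ATL2 held ranks 3 and 4 after CF Im25 siRNA. With the minimum of 100 reads used for the opening ranks, NDC1 held rank 6 after CF Im25 siRNA.

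In ATL2 the upstream site held 94.7% of 189 reads with CF Im25 siRNA and 97.8% of 600 reads with CF Im68 siRNA. The share was 31.6% with CF Im59 siRNA, 28.3% without siRNA and 23.1% with scrambled siRNA (alkaline), and 42.1% of 95 reads with scrambled siRNA (RNase I). The change was 71.6 points after CF Im25 siRNA (62.2 to 78.8) and 55.7 points after CF Im68 siRNA (45.6 to 65.2). With all reads of the window as denominator the first was 39.7 points (33.5 to 45.3).

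MRPL50 differed from the other 4 genes in its RNase I libraries. Its upstream site held 89.4% of 199 reads with CF Im25 siRNA, against 25.8% with CF Im59 siRNA, 17.0% without siRNA and 16.1% of 161 reads with scrambled siRNA. With RNase I it held 99.7% of 747 reads with CF Im68 siRNA and already 95.6% of 160 reads with scrambled siRNA. The change was 73.3 points after CF Im25 siRNA (65.1 to 79.3) and 4.11 points after CF Im68 siRNA (1.76 to 8.49), from a control in which 4.38% of the reads lay at the downstream site.

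**Figure D1:**
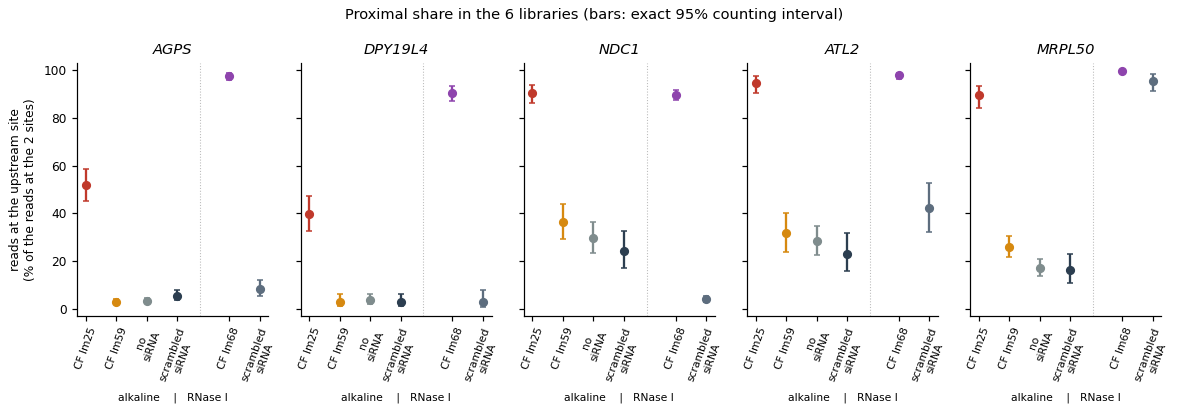
Proximal share (percent of the reads at both sites that end at the upstream site) of each gene in the 6 libraries, with 95% Clopper-Pearson intervals for read counting. With CF Im68 siRNA all 5 genes lie between 89.7% and 99.7%, and with CF Im25 siRNA they spread between 39.7% and 94.7%.

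A pair was called proximal when its share was at least 20 points higher, both libraries held at least 50 reads and the interval excluded 0. All 5 genes met this after CF Im25 siRNA, where 18.3% of pairs did (DPY19L4 missed 20 points with all window reads as denominator), and 4 of 5 after CF Im68 siRNA, where 24.4% did. Of pairs against no siRNA, 20.4% were called after CF Im25 siRNA, all 5 genes among them. These counts follow from the way the genes were chosen. Among pairs spaced 1940 to 3769 nt apart, the range of the 5 genes, 23.8% were called in the comparison for CF Im25 and 33.0% in that for CF Im68. Of 4815 pairs that could be read in both comparisons, 10.5% were called proximal in both, and AGPS, DPY19L4, NDC1 and ATL2 are among them. The larger change went with CF Im68 siRNA in AGPS, DPY19L4 and NDC1 and with CF Im25 siRNA in ATL2 and MRPL50. Subunit and fragmentation method differ together between these comparisons and cannot be told apart.

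CF Im59 siRNA was not used to choose the genes. The pairs, however, were set by mean shares over 6 libraries, including those with CF Im25 and CF Im68 siRNA. With scrambled siRNA (alkaline) the upstream site held 4.44% of end region reads in AGPS, against 13.3% at 178404164. It held 2.38% in DPY19L4, against 13.3% at 95804073, and 11.4% in ATL2, against 23.7% at 38522031. The shares below are thus no independent choice of site. None of the 5 was called proximal after CF Im59 siRNA, where 2.53% of all pairs were. In 1 random thinning of each library to the smallest, NDC1 passed the rule at 23.5 points (7.94 to 37.4). In that thinning NDC1 without siRNA also stood higher against scrambled siRNA, at 13.9 points (-1.70 to 29.3). The changes were -2.52 points in AGPS (interval -4.95 to -0.459), 0.169 in DPY19L4 (-3.66 to 3.54), 12.0 in NDC1 (1.34 to 21.9), 8.54 in ATL2 (-2.55 to 19.2) and 9.64 in MRPL50 (1.97 to 16.4). The intervals of NDC1 and MRPL50 lay above 0 and that of AGPS below 0, each for counting error alone. Against no siRNA none was called, where 1.62% of pairs were, and the changes were -0.494 points in AGPS, -0.521 in DPY19L4, 6.72 in NDC1 (-2.78 to 16.1), 3.36 in ATL2 and 8.80 in MRPL50 (3.26 to 14.4). MRPL50 alone of the 5 genes was above both alkaline control libraries with intervals that excluded 0. In the thinning above, its interval against scrambled siRNA included 0, at 8.73 points (-2.47 to 18.6). The comparisons of CF Im25 and CF Im59 siRNA use the same scrambled siRNA library and share its error.

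No siRNA against scrambled siRNA gives the differences between alkaline libraries without a targeting siRNA. The changes were -2.02 points in AGPS, 0.690 in DPY19L4, 5.25 in NDC1, 5.18 in ATL2 and 0.840 in MRPL50. None of the 5 was called, where 1.21% of pairs were. The interval of AGPS excluded 0 by a small margin (-4.46 to -0.0166), and the other 4 included it.

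**Figure D2:**
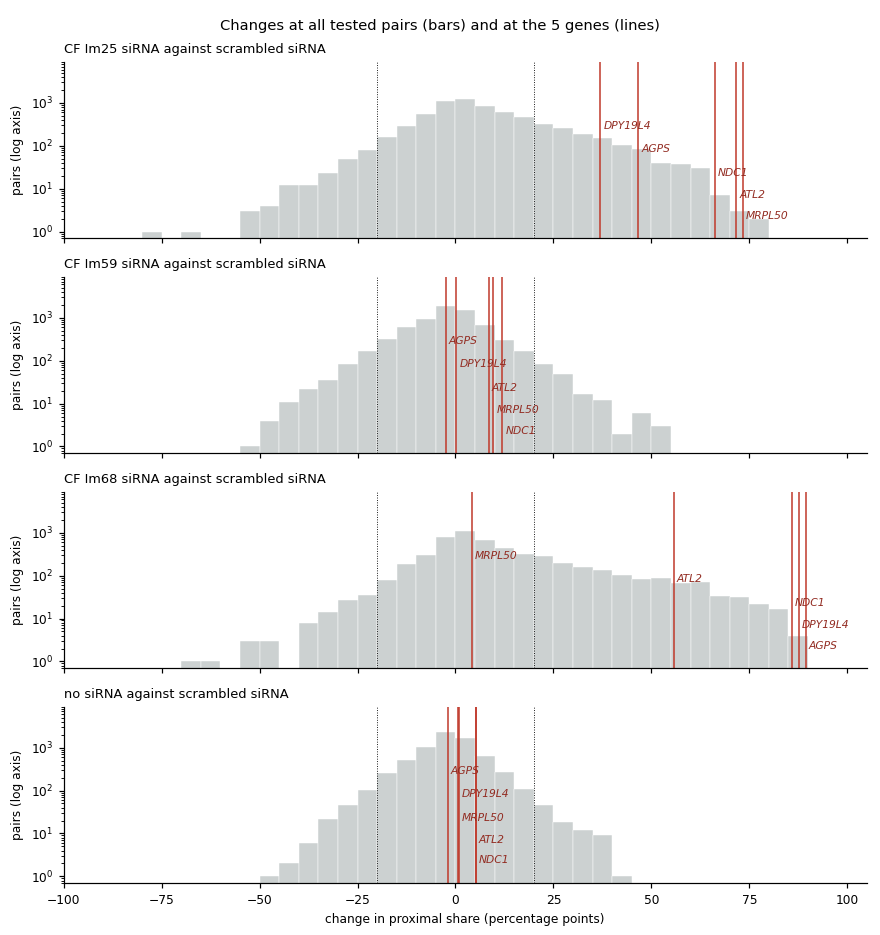
Change in proximal share (percentage points) of all pairs tested in each comparison, as the number of pairs per bin of 5 points (log axis), with the 5 genes as lines and the limits of 20 points dotted. After CF Im59 siRNA and without siRNA the marks lie between -2.52 and 12.0 points, and after CF Im25 siRNA between 36.9 and 73.3 points.

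Some of these shares differed as much between the scrambled siRNA libraries of the 2 fragmentation methods as between siRNAs. RNase I against alkaline hydrolysis, both with scrambled siRNA, gave 79.5 points in MRPL50 (71.7 to 84.9), a proximal call, where 24.7% of pairs were called proximal. NDC1 was called distal at -20.3 points (-28.6 to -13.5), where 21.1% of pairs were. The difference was 19.0 points in ATL2 (6.39 to 31.1), 2.87 in AGPS (-0.615 to 6.92) and 0.0305 in DPY19L4 (-3.94 to 5.34). AGPS and DPY19L4 had a low share in both libraries, whereas the shares of MRPL50, NDC1 and ATL2 differed between them with intervals that excluded 0. The AGPS share leaves out its intermediate site, at 42.3 CPM with RNase I and 8.84 CPM with alkaline hydrolysis. Averaged over all kept sites of the end region, AGPS reads ended 718 nt further upstream with RNase I (counting error 77.0 nt). With 1 library per method, the method and other differences between these libraries cannot be told apart.

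The share alone does not show which site changed, so the level of each site was read separately. With CF Im25 siRNA the upstream site of NDC1 stood at 23.0 CPM and with scrambled siRNA at 3.16 CPM, 7.30-fold higher (4.99 to 11.1). The downstream site stood at 2.47 CPM and 9.89 CPM in the same order, 4.01-fold lower (2.58 to 6.45). ATL2 had 16.97 and 2.84 CPM at the upstream site, 5.98-fold higher (3.97 to 9.32), and 0.948 and 9.47 CPM at the downstream site, 9.98-fold lower (5.19 to 21.5). MRPL50 had 16.9 and 2.73 CPM at the upstream site, 6.17-fold higher (4.08 to 9.71), and 1.99 and 14.2 CPM at the downstream site, 7.13-fold lower (4.48 to 11.9). In these 3 genes the gain upstream exceeded the loss downstream, as in NDC1, where the upstream site gained 19.9 CPM and the downstream site fell by 7.42 CPM. Against no siRNA this turned round in MRPL50, which gained 12.5 CPM upstream and fell by 19.6 CPM downstream.

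AGPS and DPY19L4 differed from this after CF Im25 siRNA. AGPS had 11.3 CPM with CF Im25 siRNA and 2.94 CPM with scrambled siRNA at the upstream site, 3.83-fold higher (2.52 to 6.01), and 10.4 and 52.1 CPM at the downstream site, 4.99-fold lower (4.05 to 6.20). Its downstream site thus fell by 41.6 CPM while its upstream site gained 8.34 CPM. DPY19L4 kept more of its downstream ends, with 10.5 CPM with CF Im25 siRNA and 18.6 CPM with scrambled siRNA, 1.77-fold lower (1.39 to 2.26). Its upstream site had 73 reads with CF Im25 siRNA and 5 with scrambled siRNA, 13.2-fold higher (5.39 to 41.7).

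After CF Im68 siRNA the downstream site lost most of its reads in AGPS, NDC1, ATL2 and DPY19L4. AGPS had 15 reads (1.26 CPM) there with CF Im68 siRNA and 268 reads (52.3 CPM) with scrambled siRNA, 41.5-fold lower (24.7 to 75.2). NDC1 had 7.14 and 169.8 CPM, 23.8-fold lower (19.0 to 30.1), and ATL2 1.09 and 10.7 CPM, 9.82-fold lower (5.30 to 19.6). DPY19L4 kept 3.02 CPM against 20.5 CPM, 6.77-fold lower (4.60 to 10.2). The upstream site was 11.0-fold higher in AGPS (7.34 to 17.3), 9.16-fold in NDC1 (6.52 to 13.2) and 6.32-fold in ATL2 (4.59 to 8.94). DPY19L4 had 342 reads with CF Im68 siRNA and 3 reads with scrambled siRNA upstream, a ratio of 49.1 (16.7 to 239).

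MRPL50 also differed at the level of a site after CF Im68 siRNA. Its upstream site stood at 62.6 CPM with CF Im68 siRNA and 29.8 CPM with scrambled siRNA, 2.10-fold higher (1.76 to 2.51). Its downstream site had 2 and 7 reads, 8.13-fold lower with an interval of 1.55 to 80.2.

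**Figure D3:**
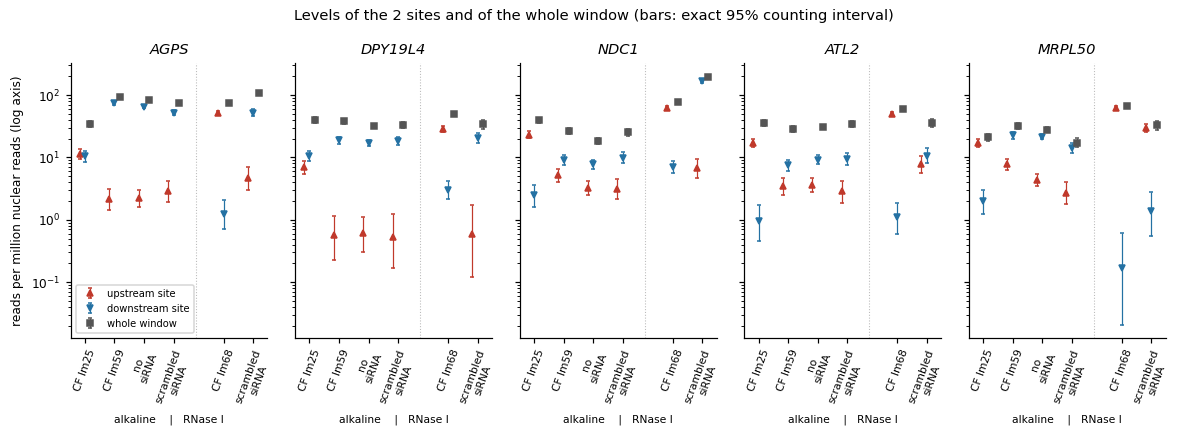
Level (CPM, log axis) of the upstream site, the downstream site and the whole window of each gene in the 6 libraries, with exact 95% Poisson intervals for read counting. With CF Im25 or CF Im68 siRNA the upstream site is higher and the downstream site lower than with the scrambled siRNA of the same fragmentation, in each of the 5 genes.

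Sites between and beside the pair moved with their position in AGPS and ATL2. In AGPS the intermediate site at 178404164 stood at 2.56 CPM with CF Im25 siRNA, 7.07 with CF Im59 siRNA, 6.42 without siRNA and 8.84 with scrambled siRNA (alkaline), and at 10.2 with CF Im68 siRNA and 42.3 with scrambled siRNA (RNase I). With RNase I and scrambled siRNA it thus held 42.2% of the reads of the end region, and it was lower with either siRNA. The AGPS site at 178402942, 3840 nt upstream of the downstream site and followed by the 7 As noted above, moved the other way. It had 50 reads with CF Im25 siRNA and 3 with scrambled siRNA, and 73 reads with CF Im68 siRNA and 3 with scrambled siRNA (RNase I). The most downstream AGPS site at 178408565 was minor, with 1 read with CF Im25 siRNA and 17 with scrambled siRNA (alkaline).

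In ATL2 the site at 38521238, only 133 nt upstream of the downstream one, followed its neighbour. It stood at 0.569 CPM with CF Im25 siRNA and 5.37 CPM with scrambled siRNA, and at 1.43 CPM with CF Im68 siRNA and 4.29 CPM with scrambled siRNA (RNase I). The ATL2 site midway at 38522031 differed less, with 7.02 CPM with CF Im25 siRNA and 5.89 CPM with scrambled siRNA, and 2.10 CPM with CF Im68 siRNA and 2.53 CPM with scrambled siRNA (RNase I). The midway site of DPY19L4 at 95804073 also differed little, with 4.55 and 2.94 CPM in the first of these comparisons and 2.69 and 3.90 CPM in the second. NDC1 had a minor site at 54231888, with 0.948 CPM with CF Im25 siRNA and 3.26 CPM with scrambled siRNA, and 0.672 CPM with CF Im68 siRNA and 2.92 CPM with scrambled siRNA (RNase I). Without siRNA it stood at 1.34 CPM (0.859 to 1.99), which overlaps the interval with CF Im25 siRNA (0.455 to 1.74). The midway sites of ATL2 and DPY19L4 stood between the gains and the losses.

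DPY19L4 also had minor ends that were rare in the controls. The site at 95800492, which lies 5570 nt upstream of the downstream site, had 16 reads with CF Im25 siRNA, 1 with CF Im59 siRNA and 0 in both alkaline controls. It had 45 reads with CF Im68 siRNA and 0 with scrambled siRNA (RNase I). The site at 95802603 had 54 reads with CF Im68 siRNA and at most 4 in any other library. Both fell below the minimum level for the main comparison and were picked out after their values were seen.

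The mean end position summarises all sites of the end region. After CF Im25 siRNA it lay further upstream by 1726 nt in AGPS (counting error 111 nt), 1227 nt in DPY19L4 (122), 1395 nt in NDC1 (80.5), 1020 nt in ATL2 (57.4) and 1709 nt in MRPL50 (84.6). After CF Im68 siRNA it lay further upstream by 2224 nt in AGPS (65.3), 2855 nt in DPY19L4 (95.5), 1898 nt in NDC1 (27.7), 1107 nt in ATL2 (77.3) and 95.8 nt in MRPL50 (38.0). DPY19L4 had the longest mean shift after CF Im68 siRNA although AGPS had the larger change in share, since with scrambled siRNA (RNase I) AGPS already used its intermediate site. After CF Im59 siRNA the mean end differed by -222 nt in AGPS (55.3), 126 nt in DPY19L4 (80.0), 222 nt in NDC1 (100.4), 127 nt in ATL2 (64.0) and 225 nt in MRPL50 (85.5). Against no siRNA the AGPS difference was -31.3 nt (40.6), and no siRNA against scrambled siRNA gave -191 nt (54.0), so the -222 nt rests on the scrambled siRNA library.

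Ends within a site fell on the same nucleotide across libraries at most sites. The most used nucleotide was the same in all 6 libraries at both sites of AGPS and NDC1, at the upstream site of ATL2 and at the downstream site of DPY19L4. At the downstream site of AGPS, 80.0% to 93.3% of reads lay on that nucleotide. At the downstream site of ATL2 it lay 8 nt further downstream with CF Im25 siRNA (10 reads) and without siRNA (165 reads). The upstream site of MRPL50 had its most used nucleotide 7 nt upstream of the site's reference position in the 4 alkaline libraries and 1 nt upstream in the RNase I libraries. The MRPL50 pair is also the one whose share differed most between the fragmentation methods among the 5 genes.

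Total reads of a gene's window count its ends wherever they lie. If the yield of reads differs between sites, a total also depends on which site is used, which was not tested. In a bulk library, fewer cells that express a gene and less RNA per cell cannot be told apart. After CF Im25 siRNA, AGPS stood at 34.6 CPM, against 74.9 CPM with scrambled siRNA, 2.16-fold lower (1.91 to 2.46), and was the only one of the 5 genes at least 2-fold lower, as were 11.9% of units. None of the 5 was at least 2-fold higher, where 13.3% of units were. The ratios were 1.21 in DPY19L4 (1.04 to 1.40), 1.55 in NDC1 (1.32 to 1.82), 1.04 in ATL2 (0.892 to 1.21) and 1.21 in MRPL50 (0.983 to 1.49). Against no siRNA the ratio was 0.755 in MRPL50 (0.641 to 0.886), which turns its direction, and 2.13 in NDC1 (1.84 to 2.47), where 9.69% of units were at least 2-fold higher. AGPS was 2.43-fold lower than without siRNA (2.17 to 2.73), where 10.5% of units were at least 2-fold lower.

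After CF Im68 siRNA the totals moved in both directions. NDC1 had 78.0 CPM with CF Im68 siRNA and 193.0 CPM with scrambled siRNA, 2.47-fold lower (2.26 to 2.71), where 6.84% of units were at least 2-fold lower. MRPL50 had 65.7 and 32.6 CPM, 2.02-fold higher (1.70 to 2.40), where 11.3% of units were at least 2-fold higher. The other ratios were 0.691 in AGPS (0.621 to 0.770), 1.48 in DPY19L4 (1.25 to 1.76) and 1.67 in ATL2 (1.42 to 1.97). After CF Im68 siRNA the upstream shift thus went with lower totals in AGPS and NDC1 and with higher totals in DPY19L4 and ATL2. NDC1 went the other way after CF Im25 siRNA, with a ratio of 1.55 against scrambled siRNA (alkaline).

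The NDC1 total rests on a control level that differed between methods. NDC1 had 193.0 CPM with RNase I and 25.5 CPM with alkaline hydrolysis, both with scrambled siRNA, 7.58-fold higher (6.58 to 8.76), where 23.8% of units were at least 2-fold higher. The excess lay at its downstream site, with 169.8 CPM with RNase I and 9.89 CPM with alkaline hydrolysis. MRPL50 showed the opposite at its downstream site, with 1.36 CPM with RNase I and 14.2 CPM with alkaline hydrolysis, and 29.8 and 2.73 CPM at its upstream site.

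After CF Im59 siRNA none of the 5 totals differed by 2-fold, where 8.99% of units were at least 2-fold higher and 10.6% lower. The ratios were 1.22 in AGPS (1.11 to 1.34), 1.16 in DPY19L4 (1.003 to 1.34), 1.05 in NDC1 (0.891 to 1.25), 0.846 in ATL2 (0.726 to 0.986) and 1.85 in MRPL50 (1.54 to 2.24), which was 1.16 against no siRNA (1.01 to 1.32). No siRNA against scrambled siRNA gave ratios of 1.12 in AGPS, 0.975 in DPY19L4, 0.726 in NDC1, 0.897 in ATL2 and 1.60 in MRPL50, none of them 2-fold, where 4.44% of units were higher and 4.13% lower. The MRPL50 total was thus lowest with scrambled siRNA among the alkaline libraries, at 17.3 CPM, against 20.9 CPM with CF Im25 siRNA, 32.0 CPM with CF Im59 siRNA and 27.7 CPM without siRNA.

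Ends far upstream of the pair were also read in the windows of DPY19L4, NDC1 and ATL2. In DPY19L4 the 3 kept sites at 95743284, 95785442 and 95786268 lie 19794 to 62778 nt upstream of the downstream site. The first had 35 reads with CF Im25 siRNA, 50 with CF Im59 siRNA, 55 without siRNA and 19 with scrambled siRNA (alkaline), and 4 with CF Im68 siRNA and 2 with scrambled siRNA (RNase I). NDC1 had a site 28112 nt upstream, at 54259270, with 5.50 CPM with CF Im25 siRNA and 3.79 CPM with scrambled siRNA, and 0.504 CPM with CF Im68 siRNA and 3.12 CPM with scrambled siRNA (RNase I). These ends are not part of the proximal share.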

How the data were processed

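The deposited files give whole-number counts of read 3′ ends per nucleotide and strand, unscaled, 1 library per file; the submitters' processing notes name hg19 and GRCh37. The sources used here do not state the aligner, the filters, or whether duplicates or internally primed reads were removed. Sites were called once over 6 libraries weighted equally (25 nt on either side of a local maximum, mean of at least 1 CPM of all reads), joined into units at gaps of at most 5 kb, and compared at the 2 sites with the largest mean share of a unit's reads over the libraries, where each held at least 5%. An end region is the unit that holds the pair. Share differences have Newcombe intervals, shares Clopper-Pearson intervals, levels exact Poisson intervals and ratios exact conditional intervals. Total calls needed a 2-fold ratio, 50 reads in 1 library and an interval excluding 1. No p-values were computed, since each group held 1 library. The genes and their windows were chosen with earlier results of these data known. Marker windows were written from general knowledge of hg19. Sequences are from GENCODE release 29. The sequence at 1 site is not reported here. The method was checked on simulated data (Python 3.11.15, numpy 2.4.6, pandas 2.3.3, scipy 1.17.1, edgeR 4.0.16 in R 4.3.3 for scaling factors). Alternatives were site width, denominator, control library, depth, scaling, site and read minimum.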

Additional observations from a re-analysis of the deposited data

How the results depend on the processing

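No called share change or called total changed direction under the settings tried, and site widths of 10 or 50 nt left the 5 genes on their side of the rule. With all reads of the window as denominator, the change after CF Im25 siRNA was 28.7 points in AGPS, 15.8 in DPY19L4 (under 20 points), 46.0 in NDC1, 39.7 in ATL2 and 65.1 in MRPL50, and after CF Im68 siRNA 65.0 in AGPS, 55.5 in DPY19L4 and 76.6 in NDC1. With the end region split midway between the sites, chosen after seeing the data, AGPS changed by -6.68 points (CF Im59), -6.06 (no siRNA) and 50.6 (CF Im68), DPY19L4 by 6.36 (CF Im59) and 73.3 (CF Im68), and ATL2 by 53.2 (CF Im25). In 1 random thinning to the smallest library, DPY19L4 changed by 91.0 points (CF Im68) and NDC1 by 23.5 (CF Im59, past 20 points). Against no siRNA, total ratios were 1.09 in AGPS, 1.45 in NDC1 and 1.16 in MRPL50 (CF Im59), and 2.13 in NDC1 and 0.755 in MRPL50 (CF Im25). After CF Im68 siRNA TMM scaling gave total ratios of 0.781 in AGPS and 0.456 in NDC1, and the median of ratios gave 0.772 and 0.451. Pairs called proximal numbered 174 after CF Im59 siRNA, 102 when thinned and 291 at 20 reads. Without siRNA there were 87, with 57 at 2 CPM, 37 when thinned and 171 at 20 reads. No paired analysis was possible because each group held 1 library, and no replicate could be left out. Depth limits the smallest counts most: the DPY19L4 upstream site had 3 reads and the MRPL50 downstream site 7 with scrambled siRNA (RNase I), the shallowest library.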
